A study of Mus musculus with 2 samples.

Results

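Connexins and pannexins form large-pore channels between and around cells. A total of 10 of these genes was examined in cortical tissue of mice without P4H-TM (knock-out, KO) and of wild-type (WT) mice: the connexin genes Gja1, Gja3, Gja4, Gja5, Gjb2, Gjb6, Gjc1 and Gjd2 and the pannexin genes Panx1 and Panx2. Members were taken by name, with every probe set annotated to exactly 1 of these symbols, and all 10 genes were measured, by 18 of the 34945 probe sets that carry 1 symbol, or as 10 of 18193 genes. The connexins typical of oligodendrocytes were kept apart. The mice were naive males of the C57BL/6J strain aged 2.5 months, and WT and KO animals were littermates. P4H-TM is a prolyl 4-hydroxylase of the endoplasmic reticulum membrane that has been linked to the hypoxia-inducible factor (HIF). Cortical RNA of 4 mice was pooled for each genotype and hybridized to 1 Affymetrix mouse genome array, so that there were 2 arrays in all, and how the KO allele was made is not given in the sources used here. Without replicate arrays the spread between animals cannot be estimated, and no test was made.

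Connexins assemble in sixes into a hemichannel, and hemichannels of neighbouring cells dock to form a gap junction, through which ions, second messengers and metabolites pass from cell to cell. Open hemichannels and pannexin channels also let ATP and other small molecules out into the extracellular space. In the cortex astrocytes are coupled mainly by Cx43 (Gja1) and Cx30 (Gjb6), electrical synapses between inhibitory neurons are built from Cx36 (Gjd2), and Cx37 (Gja4) and Cx40 (Gja5) belong to the vessel wall.

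The question was whether the mRNA of these channels differed between WT and KO cortex. On the brightest probe set of each gene, 5 members were higher in KO than in WT cortex and 5 were lower, and the median difference of KO minus WT was 0.00 on the log2 scale, with a mean of −0.05. Over all genes 46% had higher and 49% lower values, and the median was likewise 0.00. The member differences ran from −0.66 for Gja3 to 0.23 for Gjc1. Of the 10 members 0 were at least 1.5-fold higher, against 0.61% of all genes, and 1, Gja3, was at least 1.5-fold lower, against 0.148% of all genes. The median size of a member difference, regardless of sign, was 0.10, and that of all genes was 0.08.

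All values are log2 expression as normalized by the authors, and a log2 difference of 0.585 corresponds to 1.5-fold. In the absence of replicates, the size of a difference is set beside other differences on the same arrays. The filter for sufficient signal was 6.385, the median over all probe sets of the mean of both arrays, which 7 members reached on their brightest probe set and Gja3, Gja4 and Gja5 did not. Between probe sets of the same gene, the pooled SD of the difference was 0.101 above this filter, over 5101 genes with several such probe sets, and 0.189 below it, over 2969 genes. Each probe set is set beside the SD of its own side of the filter, and beside the differences of the 1000 genes of nearest mean signal. The SD describes disagreement of probe sets on the same 2 arrays and is shared by all signals of a side. Differences narrowed with signal, with 5th and 95th percentiles of −0.26 and 0.29 at a mean of 7.0 and of −0.13 and 0.14 at 10.5. A difference larger than the SD pooled at any signal, 0.147, was found in 27.2% of all genes and in 4 of the 10 members. P4htm, the targeted gene, had 11.05 in WT and 9.10 in KO on its brightest probe set and 9.71 and 8.07 on its other one, so that both were lower in the array labelled KO; where in the gene they lie was not examined. All 6 measured markers of excitatory neurons and all 15 markers of astrocytes reached the signal filter.

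**Figure D1:**
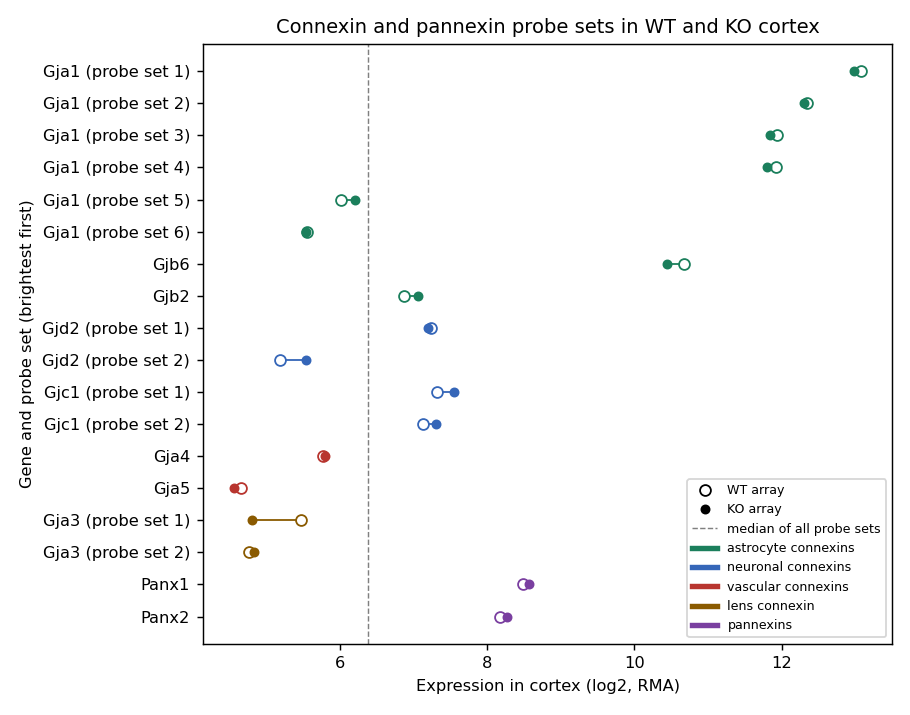
Log2 expression of each of the 18 probe sets of the connexin and pannexin genes in the WT array (open circles) and the KO array (filled points), with colours for the cell type or class; the dashed line marks the signal filter of 6.385. Error bars are absent for want of replicates. The points of a pair mostly lie close together, and the widest gap is that of a Gja3 probe set at 5.47 in WT and 4.81 in KO.

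Among the astrocyte connexins, Gjb6 and Gja1 had lower and Gjb2 had higher values in KO, none by 1.5-fold. Gjb6 encodes Cx30, which mature astrocytes make and which is also found in the meninges. Its only probe set had 10.67 in WT and 10.44 in KO, a difference of −0.23, or 85.3% of the WT level. That is 2.27 times the pooled SD between probe sets above the filter. Of the 1000 genes of nearest signal 0.6% had a difference as low or lower, and 2.2% differed as much in either direction. Gjb6 ranked as number 287 from the lowest among 11730 genes above the filter.

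Gja1 encodes Cx43, the most abundant astrocyte connexin, which meningeal and vascular cells also make. Its brightest probe set had 13.08 in WT and 12.98 in KO, a difference of −0.10. Of its 6 probe sets, 5 had lower values in KO. The other probe sets above the filter had differences of −0.03 (12.34 and 12.31), −0.10 (11.94 and 11.84) and −0.13 (11.93 and 11.80). On the probe sets below the filter the values were 6.02 in WT and 6.20 in KO, and 5.55 and 5.54. The 4 bright probe sets thus agreed in direction, while the dimmer ones differed by 0.18 and −0.01, and the average over all 6 was −0.03. Of these differences the −0.13 was larger than the pooled SD of its side of the filter and the other 5 were within it. Of the genes nearest in signal to the brightest probe set, 7.6% were as low, and 11.9% differed as much in either direction. Because these are bulk samples, fewer astrocytes and less RNA per astrocyte cannot be told apart.

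The other astrocyte genes give the setting for these values. Of 15 astrocyte markers, 10 had lower, 4 higher and 1 equal values in KO, with a median of −0.03. Their mean log2 level was 10.80 in WT and 10.76 in KO. The differences ranged from −0.22 for S100b, a calcium-binding protein whose probe sets average −0.16, to 0.21 for Slc7a10, an amino acid transporter. The Gja1 difference lay inside this range and that of Gjb6 lay 1 step of the rounding below its lower end. That end was set by S100b alone, and the next lowest marker had −0.14.

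Gjb2 encodes Cx26, which is made by meningeal cells and, at a lower level, by astrocytes. Its probe set had 6.87 in WT and 7.06 in KO, a difference of 0.19, which is 1.88 times the pooled SD above the filter. Of the genes nearest in signal 12.8% were as high or higher, and 23.6% differed as much in either direction. Meninges markers were higher in the same array. Of 14 such markers 13 had higher values in KO, 5 of them by at least 1.5-fold, with a median of 0.395 and a mean log2 level of 7.82 in WT and 8.26 in KO. They ran from −0.01 for Slc22a6, an organic anion transporter whose probe sets average 0.06, to 0.93 for Igfbp2, a binding protein of insulin-like growth factors. With probe sets averaged all 14 were higher. Of the 5 past 1.5-fold, Dcn and Igf2 then fell short of it, at 0.50 and 0.45. Choroid plexus markers were higher too, in 12 of 12 genes, from 0.37 for Ttr, whose probe sets average 0.56, to 2.21 for Kcnj13. Their mean log2 level was 7.96 in WT and 9.44 in KO. Of these markers 1 on each list, Crabp2 and Slc4a5, was below the signal filter. The part of these tissues in the Gjb2 difference was not tested.

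**Figure D2:**
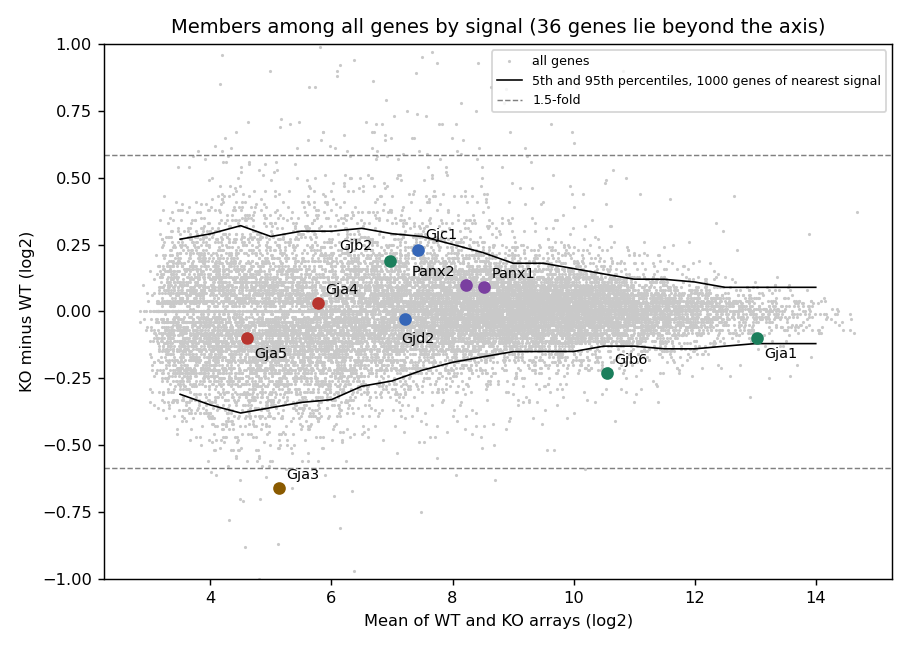
Difference between KO and WT (vertical axis, log2) against the mean of both arrays (horizontal axis, log2) for all genes in grey and the 10 connexin and pannexin genes in colour, each on its brightest probe set; black lines are the 5th and 95th percentiles of the 1000 genes of nearest signal and dashed lines mark 1.5-fold. Gjb6 and Gja3 lie below the lower black line, and 36 genes fall outside the axis.

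Of the neuronal connexins, Gjc1 was higher in KO and Gjd2 hardly differed on the brightest probe set, while both were higher with probe sets averaged. Gjc1 encodes Cx45, a connexin of neurons and of vascular smooth muscle. Its probe sets had 7.32 and 7.13 in WT and 7.55 and 7.31 in KO. Both were higher in KO, by 0.23 and 0.18, which is 2.27 and 1.78 times the pooled SD above the filter. The former was matched or passed by 8.4% of the genes nearest in signal, and 13.4% differed as much in either direction. Gjd2 encodes Cx36, the connexin of electrical synapses. Its probe set above the filter had 7.23 in WT and 7.20 in KO, a difference of −0.03, and its dimmer one, below the filter, had 5.19 and 5.54, a difference of 0.35. The probe sets of Gjd2 therefore pointed opposite ways, with an average of 0.16. Of the genes nearest in signal to the dimmer one 2.3% were as high, and 7.1% differed as much in either direction.

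Marker lists of neurons had medians close to 0, and that of mural cells, which include smooth muscle, was higher. Of 8 interneuron markers 5 were lower and 3 higher, with a median of −0.07, from −0.19 for Pvalb, the calcium-binding protein of fast-spiking interneurons, to 0.11 for the neuropeptide gene Sst. With probe sets averaged this count was reversed, with 5 higher and 3 lower. Excitatory neuron markers had a median of −0.03, from −0.17 for Neurod6 to 0.06 for Emx1, both transcription factor genes. Mural cell markers were higher in 7 of 10 genes, with a median of 0.10 and a mean log2 level of 8.48 in WT and 8.63 in KO. They ran from −0.12 for the potassium channel regulator Abcc9 to 0.63 for the smooth muscle actin Acta2, whose probe sets average 0.34. Whether smooth muscle contributed to the Gjc1 value was not tested.

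The vascular connexins were measured at low signal. Gja4, the Cx37 gene of arterial endothelium, had 5.77 in WT and 5.80 in KO, a difference of 0.03. Gja5, the Cx40 gene of the same cells, had 4.66 and 4.56, a difference of −0.10, and 65.4% of the genes nearest in signal differed by as much in either direction. Neither gene differed by more than the pooled SD below the filter. Of 8 markers of arterial endothelium 3 were lower and 5 higher, with a median of 0.04, from −0.09 for Gkn3, a gastrokine whose probe sets average 0.17, with the same value for Hey1 and Sox17, to 0.23 for the ephrin gene Efnb2. Of 11 endothelial markers 8 had higher values, with a median of 0.09, from −0.19 for the glucose transporter Slc2a1 to 0.25 for the cadherin Cdh5. The other probe set of Cdh5 differed by −0.28, and the average of both was −0.02.

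Gja3 had the largest difference of the members. It encodes Cx46, best known from the fibre cells of the eye lens. On the probe set annotated to its RefSeq mRNA the value was 5.47 in WT and 4.81 in KO, a difference of −0.66, or 1.58-fold lower in KO. Of the 1000 genes of nearest signal 0.2% were as low, and 0.7% differed as much in either direction. Over all genes Gja3 ranked as number 16 from the lowest. Its other probe set, which is annotated to an expressed sequence tag, had 4.77 in WT and 4.83 in KO, a difference of 0.06 with the opposite sign. The average of both was −0.30, short of 1.5-fold. All 4 values lay below the signal filter, and the −0.66 was larger than the pooled SD there while the 0.06 was within it. Below the filter 0.325% of genes were at least 1.5-fold lower. Of all 27 genes at least 1.5-fold lower, 10 have several probe sets, and 4 of these 10 have a probe set without a lower value, Gja3 among them.

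Gja3, Gjb2 and Gjb6 lie side by side on chromosome 14, with 0 other protein-coding genes between them in the gene order of RefSeq, assembly GRCm38.p6. Their differences were −0.66, 0.19 and −0.23 on the brightest probe sets, so these neighbours did not share a direction. Their promoters are printed because they are the neighbouring members that differ in direction. Each window runs 5′ to 3′ over 300 bases around an annotated start, from RefSeq on GRCm38.p6. Capitals mark GCGTG or its reverse complement CACGC, a core motif of the HIF response element.
Gja3, first start (chr14:57057981-57058280, minus strand): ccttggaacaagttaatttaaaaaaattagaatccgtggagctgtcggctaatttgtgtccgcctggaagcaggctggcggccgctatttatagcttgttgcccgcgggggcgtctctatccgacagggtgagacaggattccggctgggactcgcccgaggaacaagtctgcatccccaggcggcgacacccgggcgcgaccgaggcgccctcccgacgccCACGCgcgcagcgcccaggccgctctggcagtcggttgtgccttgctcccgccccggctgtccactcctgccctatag
Gja3, second start (chr14:57057674-57057973, minus strand): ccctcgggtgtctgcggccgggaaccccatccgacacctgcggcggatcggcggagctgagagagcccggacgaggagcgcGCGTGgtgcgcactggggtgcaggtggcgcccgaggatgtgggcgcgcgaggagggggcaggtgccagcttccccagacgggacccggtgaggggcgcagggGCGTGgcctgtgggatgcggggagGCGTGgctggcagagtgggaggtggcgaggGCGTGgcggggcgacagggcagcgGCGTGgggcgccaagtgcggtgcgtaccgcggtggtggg
Gjb2 (chr14:57104653-57104952, minus strand): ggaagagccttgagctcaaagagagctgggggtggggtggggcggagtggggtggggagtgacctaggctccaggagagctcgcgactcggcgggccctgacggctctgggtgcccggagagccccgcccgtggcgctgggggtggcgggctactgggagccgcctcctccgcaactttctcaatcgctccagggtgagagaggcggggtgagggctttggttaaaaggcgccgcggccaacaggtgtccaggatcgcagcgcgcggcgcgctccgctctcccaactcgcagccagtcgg
Gjb6 (chr14:57133562-57133861, minus strand): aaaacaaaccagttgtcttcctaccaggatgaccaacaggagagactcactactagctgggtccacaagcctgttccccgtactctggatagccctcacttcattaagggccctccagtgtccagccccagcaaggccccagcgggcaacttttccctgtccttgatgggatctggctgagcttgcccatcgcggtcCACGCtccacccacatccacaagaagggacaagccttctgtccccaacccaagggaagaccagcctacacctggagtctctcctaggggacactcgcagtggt
The first Gja3 window and the Gjb6 window each hold 1 CACGC, the second Gja3 window holds 5 GCGTG, all on the printed strand, and the Gjb2 window holds 0. The window with 5 matches has a GC content of 76%, and 0.463% of all 32851 promoter windows hold at least 5. The RefSeq table has 9 windows, for 8 of the 10 members, and 6 of these 9 windows hold GCGTG on either strand, against 32.4% of all windows. The other HIF core motif, ACGTG or its reverse complement CACGT, was found in 0 of the 9 windows and in 19.6% of all windows, and 6 of the 9 against 43.8% hold either motif. ACGTG is also part of the E-box CACGTG. A match describes letters in the window, and binding was not measured.

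The pannexins had values slightly higher in KO. Panx1, the ATP release channel found in neurons and glia, had 8.48 in WT and 8.57 in KO, a difference of 0.09. Panx2, a pannexin of the central nervous system that is found mostly on intracellular membranes, had 8.17 and 8.27, a difference of 0.10. Each has 1 probe set, above the filter. Both differences lay within the pooled SD above the filter, and 24.9% of the genes nearest in signal were as high as each of them. In either direction 42.1% differed as much as Panx1 and 41.9% as much as Panx2. Panx1 is on chromosome 9, as P4htm is, with 951 protein-coding genes between them.

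The connexins outside the list were lower where they belong to oligodendrocytes. Gjc3, the Cx29 gene of myelinating cells, had 7.94 in WT and 7.47 in KO on its brighter probe set, a difference of −0.47, and 6.71 on both arrays on the other. Gjb1, the Cx32 gene, had 7.46 and 7.23 on its brighter probe set, a difference of −0.23, and one of −0.11 on the dimmer one. Oligodendrocyte markers were lower in 11 of 11 genes, from −0.34 for Cldn11 and Opalin to −0.08 for Mbp, all of myelin, with a mean log2 level of 11.98 in WT and 11.74 in KO. Among the 10 members 5 had lower values, and Gjb6 equalled Gjb1 in its difference. The remaining measured family members, Gja10, Gjb5, Gjd4, Gje1 and Panx3, were all below the signal filter, with differences of 0.04, −0.38, 0.04, −0.06 and 0.25. Panx3 differed by 0.04 and −0.42 on its other probe sets.

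Genes for partners of these channels differed little. Of 9 measured partners 7 were higher and 2 lower in KO cortex; their median was 0.05, and 0 were at 1.5-fold in either direction. The highest was 0.10 for Cnst, whose product consortin carries connexins to the cell surface, and the lowest −0.08 for Prkca, a protein kinase that phosphorylates Cx43. Cav1 equalled Cnst and Camk2a equalled Prkca to the rounding of the values. Tjp1, which encodes the scaffold ZO-1 of gap junction plaques, had 10.63 in WT and 10.68 in KO, and P2rx7, an ATP-gated receptor that associates with Panx1, had 7.33 and 7.40, while its probe sets average −0.03. Other large-pore channels had lower values in 8 of 8 measured genes on the brightest probe set and in 6 of 8 with probe sets averaged, with a median of −0.15 on the former and 0 at 1.5-fold. Lower values were found in 49% of all genes and in 55.8% of those below the signal filter, where Calhm4, Calhm6 and Lrrc8e lay. Calhm5 of the calcium homeostasis modulator family had the lowest value relative to WT, at 8.01 in WT and 7.68 in KO, and its relative Calhm2 the least negative, at −0.01. Lrrc8a, the obligatory subunit of the volume-regulated anion channel, had 9.43 and 9.30. Probe sets of this list were not all lower, since the dimmer one of Lrrc8c differed by 0.48 and that of Lrrc8e by 0.26.

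**Figure D3:**
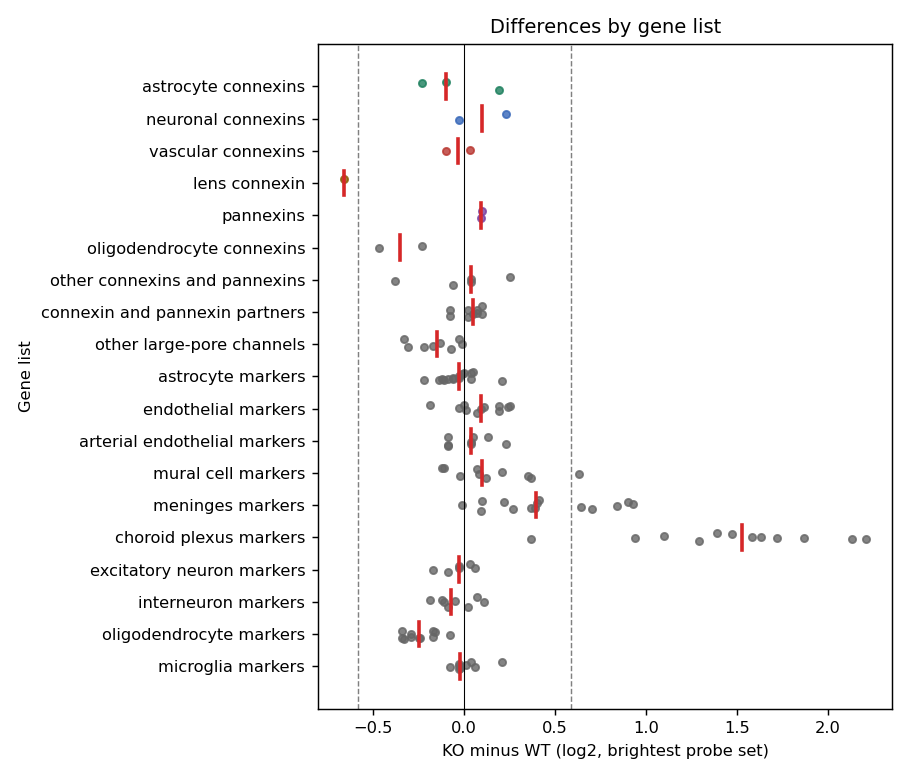
Difference between KO and WT (horizontal axis, log2) of each measured gene on its brightest probe set, by gene list (vertical axis), with a red bar at the median of a list and dashed lines at 1.5-fold. Error bars are absent for want of replicates; the connexin and pannexin lists lie within 1.5-fold apart from Gja3 at −0.66, while the choroid plexus markers reach 2.21.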

How the data were processed

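Total RNA of cortical tissue was extracted, labelled with biotin and hybridized to Affymetrix Mouse Genome arrays, 1 pool of 4 mice per genotype. Intensities were read by the authors in the GeneChip Operating System and then normalized in GenePattern. RMA is given in the submitters' processing notes, without a version. The deposited values are log2 expression per probe set with 2 decimals, with a median of 6.38 on the WT array and of 6.39 on the KO array. RMA aligns the distributions of the arrays, so a shift shared by most genes cannot be seen. The number of arrays limits the precision.

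Probe sets were named through the platform annotation, and only those with 1 symbol were used. A gene took its probe set with the highest mean, and no test was run. A total of 158 genes on 19 lists, written from general knowledge, was examined, of which 138 were measured. Members and lists were chosen with earlier results of these data known. Named were P4htm, all members, the other connexins and pannexins, and the highest and lowest gene of each other list, and in addition Lrrc8a, Lrrc8c, Lrrc8e, Calhm4, Calhm6, Tjp1, P2rx7, Cav1, Camk2a, Hey1, Sox17, Crabp2, Dcn, Igf2, Slc4a5 and Opalin, chosen after their values were seen. The microglia markers had a median of −0.02, from −0.08 for Csf1r to 0.21 for Itgam. Alternatives averaged probe sets, left out those open to cross-matching transcripts, applied the signal filter, centred the arrays, removed the intensity trend by lowess with a span of 0.3, or used folds of 1.25 and 2. The procedure was tested on simulated data. Python 3.11.15 was used with pandas 2.3.3, statsmodels 0.14.6, numpy 2.4.6 and, for figures, matplotlib 3.10.9.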

Additional observations from a re-analysis of the deposited data

How the results depend on the processing

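No paired analysis was possible because there is 1 array per genotype, which also means that no replicate could be left out. The count of members at least 1.5-fold lower, 1, was 0 with probe sets averaged, 0 with the signal filter and 0 at 2-fold, since Gja3 is the gene counted and its probe sets average −0.30 and lie below the filter. The members with lower values, 5, numbered 3 with the signal filter, which tests 7 of the 10. P4htm, at −1.95, averaged −1.80 over its probe sets and had −1.64 when those open to other transcripts were left out. The other 28 values of these counts and medians stayed within 1.5 times or within the pooled SD of 0.147 between probe sets at any signal, as did 38 of 40 values of single members. The others were Gja3 and Gjd2 with probe sets averaged, and Gjd2, at 0.16, was the only member whose sign turned under these settings. Many of the unmoved values were fixed by the settings and are no sign of stability. Centring subtracted a median of 0.00, and averaging cannot change the 6 members with 1 probe set. Leaving out probe sets open to other transcripts changed only Gja1 among the members. Signal below the filter limits what can be said of Gja3, Gja4 and Gja5.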
